A study of Mus musculus with 4 samples.

Results

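The interleukin-6 (IL-6) family was followed through 10 genes given as a list of symbols: the ligands Il6, Lif, Il11 and Clcf1, the receptor chains Il6st, Lifr, Osmr, Il6ra and Il11ra1, and the feedback inhibitor Socs3. They are 10 of 24421 gene symbols in the read count table, and all 10 were found in it. The table holds 4 bulk RNA sequencing libraries, made from DPPIV- and DPPIV+ fibro-adipogenic progenitors (FAPs) of the same 2 mice. FAPs are stromal progenitors of skeletal muscle, sorted here as PI- CD31- CD45- Sca1+ cells and split by surface DPPIV, the product of Dpp4. Both mice were wild type, and both had 3 weeks of CSF1R inhibition and then 3 days of regular diet, so every library comes from muscle in which macrophages had been targeted and the drug withdrawn. No library from an untreated mouse was analysed here, and the study describes its mice as adults without giving the ages of these 2. The labels name the tibialis anterior as the tissue, whereas the dissection described took the muscle of both hindlimbs.

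Most cytokines of the IL-6 family signal through receptor complexes that contain the shared chain gp130, the product of Il6st. IL-6 and IL-11 first bind a receptor of their own (the products of Il6ra and Il11ra1) and then gp130, LIF binds the LIF receptor together with gp130, and oncostatin M binds the oncostatin M receptor with gp130. CLCF1 acts through the CNTF receptor, the LIF receptor and gp130. Bound receptors activate JAK kinases and the transcription factor STAT3, which induces Socs3, and SOCS3 in turn binds gp130 and shuts the signal off. In muscle, FAPs are known as a source of IL-6 after injury.

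The libraries held 18240110 to 20879405 reads on genes. Levels are given as CPM, the reads of a gene scaled to library size, with library sizes set by TMM, and a pair of values for a cell type is always in the order mouse 1, mouse 2. DPPIV+ FAPs were tested against DPPIV- FAPs by edgeR's quasi-likelihood method with a term for the mouse, and p-values were adjusted over the 11588 genes that reached 2 CPM in at least 2 libraries. Of the FAP markers, Pdgfra stood between 1159 and 1657 CPM in the 4 libraries and was lower in DPPIV+ FAPs (log2 fold change -0.38). Ly6a, another FAP marker, was higher (0.58). Of 8 FAP markers, 5 were called lower and 2 higher in edgeR, where 17.2% and 15.9% of all genes tested were. Ptprc, which encodes the leukocyte marker CD45, was at 6.42 to 9.75 CPM, but Lyz2, another leukocyte marker, was at 121 to 220 CPM. Pax7, which marks satellite cells, was at 0.335 to 0.511 CPM, and the myofibre marker Acta1 at 18.7 to 29.5 CPM. Dpp4 was at 89.8 and 39.7 CPM in the DPPIV- FAPs of mice 1 and 2, and at 728 and 575 CPM in DPPIV+ FAPs.

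DPPIV+ FAPs had more mRNA for the IL-6 receptor and for Socs3, and less for gp130, the LIF, oncostatin M and IL-11 receptors and the ligand Clcf1. Of the 10 genes, 9 passed the filter on low values and Il11 did not. Of these 9, 3 were called higher in DPPIV+ FAPs (Il6, Il6ra and Socs3), 5 were called lower (Clcf1, Il6st, Lifr, Osmr and Il11ra1), and Lif was not called. Clcf1 passed this filter only through its DPPIV- libraries. Over all genes tested, 15.9% were called higher and 17.2% lower, 33.0% in either direction. By separation of the libraries, 2 of the 9 (Il6ra and Socs3) were higher in both DPPIV+ libraries than in both DPPIV- libraries and 5 were lower, where 27.8% and 28.6% of all genes tested did so. With DESeq2, 2 were called higher and 4 lower (background 7.97% and 8.59%), and in edgeR without the mouse term, 1 higher and 2 lower (background 8.64% and 9.66%). The median log2 fold change of the 9 genes was -0.26, against -0.00199 over all genes tested. Il6 was the 1 called gene whose direction differed between the mice. In bulk samples, fewer cells that express a gene and less of its RNA per cell cannot be told apart.

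**Figure D1:**
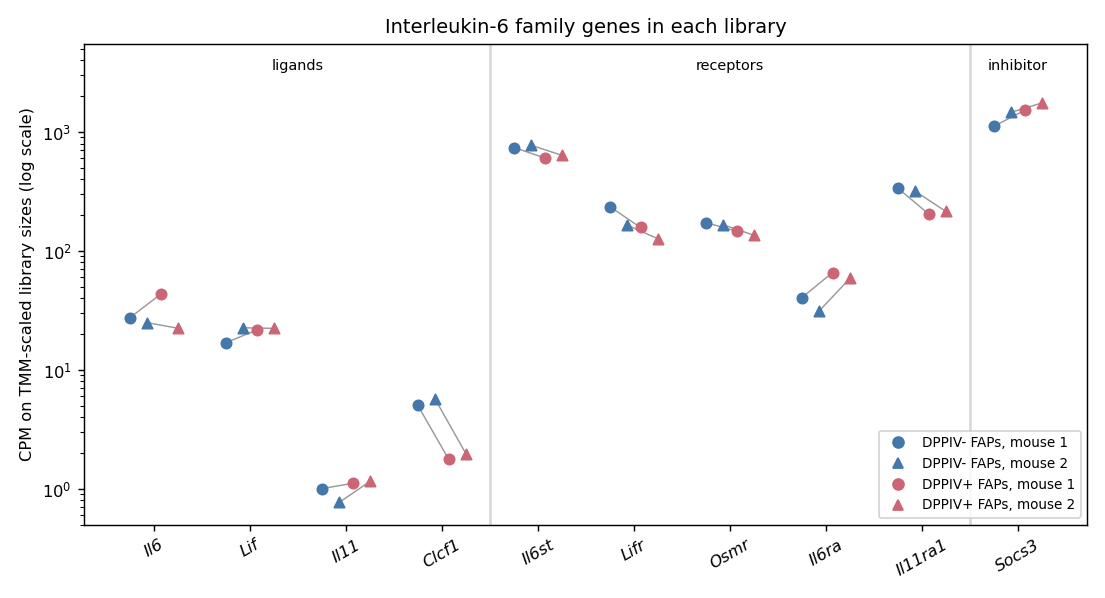
CPM on TMM-scaled library sizes (log axis) of the 10 genes in each library, with circles for mouse 1, triangles for mouse 2 and grey lines joining the cell types of a mouse. Il6ra and Socs3 were higher in both DPPIV+ libraries than in both DPPIV- libraries, Clcf1 and the other 4 receptor chains were lower, and the lines of Il6 run in opposite directions.

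Of the ligands that passed the filter, the one that differed in the same direction in both mice was Clcf1 (chromosome 19, 4214238 to 4223490, GRCm38). In DPPIV- FAPs mouse 1 gave 105 reads (5.02 CPM) and mouse 2 gave 111 reads (5.67 CPM), while in DPPIV+ FAPs they gave 32 reads (1.78 CPM) and 36 reads (1.98 CPM). Both DPPIV+ libraries were thus lower than both DPPIV- libraries, and the gene passed the filter through the DPPIV- libraries alone. The fitted log2 fold change was -1.51 (standard error 0.25, adjusted p = 1.38e-08 in edgeR), with -1.49 in mouse 1 and -1.52 in mouse 2. An unlisted transcript on the same strand shares 311 exon bases with Clcf1, and whether the counting used strand was not stated.

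CLCF1 binds the chain encoded by Cntfr, and this gene was lower in DPPIV+ FAPs as well. Cntfr was at 62.0 and 54.7 CPM in DPPIV- FAPs and at 13.4 and 20.1 CPM in DPPIV+ FAPs, with no overlap between the cell types. Its log2 fold change was -1.80 (standard error 0.09, adjusted p = 4.83e-92 in edgeR), with -2.21 in mouse 1 and -1.44 in mouse 2. The adjusted p of Cntfr was at most 0.000408 over 9 settings (the reported fit and its alternatives in edgeR and DESeq2).

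Il6 (chromosome 5, 30013114 to 30019981) encodes the founding cytokine of the family. It was at 27.4 and 24.9 CPM in the DPPIV- FAPs of mice 1 and 2, and at 43.2 and 22.4 CPM in DPPIV+ FAPs. The DPPIV+ library of mouse 1 was the highest and the DPPIV+ library of mouse 2 the lowest, so the cell types overlapped. The fitted log2 fold change was 0.28 (standard error 0.09, adjusted p = 0.00634 in edgeR), made of 0.66 in mouse 1 and -0.16 in mouse 2. Within a mouse, the ratio of DPPIV+ to DPPIV- reads per library size was 1.58 (95% interval 1.41 to 1.76) in mouse 1 and 0.898 (0.785 to 1.03) in mouse 2, where the intervals cover counting error only. The call rests on mouse 1: without it the log2 ratio was -0.16, and the adjusted p of Il6 was 0.904 with DESeq2, 0.499 in edgeR without the mouse term, 0.0686 with RLE size factors and 0.190 after correcting for GC content and transcript length.

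Lif (chromosome 11, 4257557 to 4272514) encodes leukemia inhibitory factor. It was at 16.9 and 22.6 CPM in DPPIV- FAPs and at 21.6 and 22.3 CPM in DPPIV+ FAPs. The libraries overlapped, and the log2 fold change of 0.16 (standard error 0.11, 95% interval -0.04 to 0.37) did not pass the threshold (adjusted p = 0.258 in edgeR) in any of the 9 settings. Il11 (chromosome 7, 4772373 to 4782859), a ligand with a receptor of its own, had 21 and 15 reads in DPPIV- FAPs and 20 and 21 reads in DPPIV+ FAPs. At this depth a difference was not detectable: the ratio of DPPIV+ to DPPIV- over both mice was 1.27 (95% interval 0.794 to 2.05), and with a filter of 10 reads in every library its adjusted p was 0.549 in edgeR.

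Other ligands of the family were scarce. Osm, the ligand of the oncostatin M receptor, gave 30 and 19 reads in DPPIV- and DPPIV+ FAPs of mouse 1, and 13 and 15 reads in those of mouse 2. Ctf1, which encodes cardiotrophin, had 14 and 18 reads in DPPIV- FAPs and 6 and 5 in DPPIV+ FAPs. Ebi3, which pairs with the product of Il27, had 1 to 10 reads. Cntf had 0 or 1 read in each library and shares 847 exon bases on the same strand with Zfp91. Ctf2, Il27 and Il31 had 0 reads in every library, where 3 reads, the limit that a count of 0 allows, correspond to 0.143 to 0.167 CPM. None of these 7 genes passed the filter.

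The shared chain gp130 had less mRNA in DPPIV+ FAPs, by a small margin that was alike in both mice. Il6st (chromosome 13, 112464070 to 112510086) was at 740.7 and 775 CPM in DPPIV- FAPs and at 607 and 637 CPM in DPPIV+ FAPs, with no overlap. The log2 fold change was -0.29 (standard error 0.07, adjusted p = 0.000216 in edgeR), -0.29 in mouse 1 and -0.28 in mouse 2. Without the mouse term the adjusted p in edgeR was 0.0597.

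The chains that pair with gp130 for LIF and oncostatin M were lower too. Lifr (chromosome 15, 7090614 to 7197489) was at 236 and 165 CPM in DPPIV- FAPs and at 158 and 127 CPM in DPPIV+ FAPs. Its lowest DPPIV- library lay just above its highest DPPIV+ library. Its log2 fold change was -0.48 (standard error 0.07, adjusted p = 6.53e-12 in edgeR, 0.104 without the mouse term). Osmr (chromosome 15, 6813577 to 6874969) lies 216 kb from Lifr and was at 173 and 166 CPM in DPPIV- FAPs and at 147 and 136 CPM in DPPIV+ FAPs. The cell types did not overlap, and the log2 fold change was -0.26 (standard error 0.07, adjusted p = 0.000331 in edgeR). The adjusted p of Osmr was 0.0642 with DESeq2 and 0.0640 in edgeR without the mouse term.

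The ligand-specific chains for IL-6 and IL-11 moved in opposite directions. Il6ra (chromosome 3, 89864059 to 89913196) gave 846 reads (40.4 CPM) in DPPIV- FAPs and 1186 reads (65.9 CPM) in DPPIV+ FAPs of mouse 1, and 611 reads (31.2 CPM) and 1071 reads (58.8 CPM) in those of mouse 2. Both DPPIV+ libraries were above both DPPIV- libraries. The log2 fold change was 0.80 (standard error 0.07, 95% interval 0.66 to 0.95, adjusted p = 9.22e-26 in edgeR), 0.70 in mouse 1 and 0.91 in mouse 2. It was the 1 receptor chain of the list called higher in DPPIV+ FAPs, and the call held in all 9 settings. An unlisted antisense transcript shares 242 exon bases with it.

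Il11ra1 (chromosome 4, 41699989 to 41769474), which encodes the IL-11 receptor, was at 337 and 318 CPM in DPPIV- FAPs and at 205 and 215 CPM in DPPIV+ FAPs. The libraries of the cell types lay far apart relative to the difference between mice. Its log2 fold change was -0.64 (standard error 0.07, adjusted p = 3.39e-20 in edgeR), -0.72 in mouse 1 and -0.57 in mouse 2, and it was called in all 9 settings. The gene has near-identical copies, Gm13305 (98.6% over 2578 bases) and Il11ra2 (98.1% over 421 bases). Searched from the Il11ra2 transcript, the match to Il11ra1 was 99.0% over 1299 bases. Both copies were listed at 0 reads, and how reads that match several copies were assigned was not stated, so its level is uncertain in that respect. Measured from the annotated gene start given above, Cntfr lies 2.90 kb from Il11ra1 on chromosome 4. The RefSeq starts of Il11ra1 lie further away, just after bases 41760442 and 41762309, whereas Cntfr ends at 41697089.

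Of the other receptors, Il27ra and Il31ra were also lower in DPPIV+ FAPs. Il27ra, a chain for IL-27 that pairs with gp130, was at 5.97 and 7.16 CPM in DPPIV- FAPs and at 4.17 and 3.13 CPM in DPPIV+ FAPs (log2 ratio -0.85, standard error 0.21, adjusted p = 0.000333 in edgeR, 0.124 with DESeq2). Il31ra, which lies 9.81 kb from Il6st and encodes the IL-31 receptor that pairs with the oncostatin M receptor, had 43 and 46 reads in DPPIV- FAPs and 2 and 2 in DPPIV+ FAPs. The ratio of DPPIV- to DPPIV+ reads per library size was 19.9 (95% interval 7.51 to 74.7) over both mice, and the gene passed the filter through its DPPIV- libraries alone. Of the 11 other ligands and receptors considered, 3 were tested (Cntfr, Il27ra and Il31ra). They were called lower in edgeR, where 17.2% of all genes tested were, and 2 of them with DESeq2, where 8.59% were, but Il31ra, which passed only where it was high, drops out with a filter of 10 reads in every library.

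**Figure D2:**
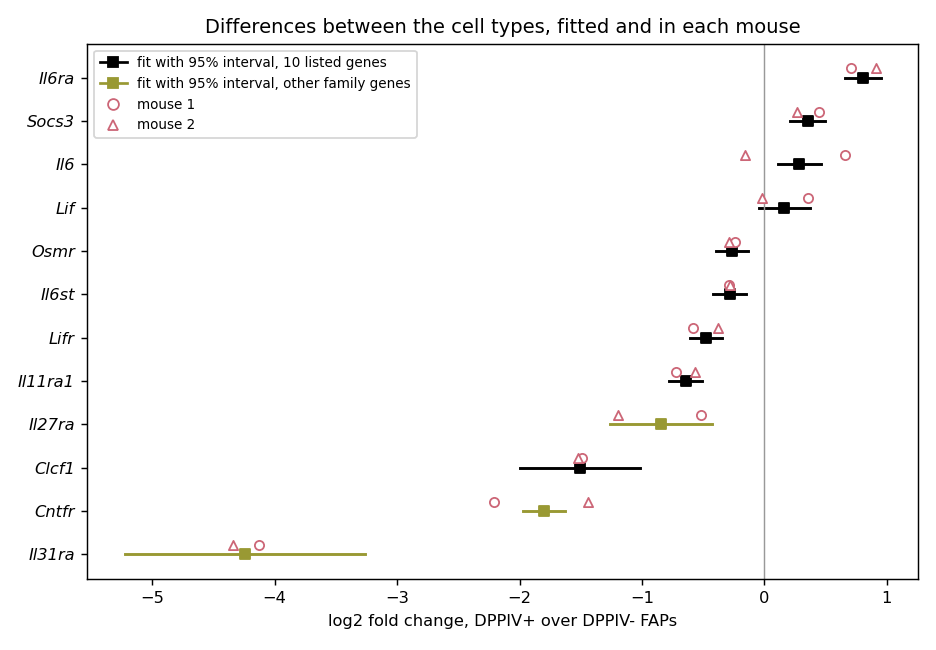
Log2 fold change of DPPIV+ over DPPIV- FAPs for the 9 tested genes of the list (black) and 3 other family genes tested (olive), squares with 95% intervals from edgeR and open symbols for each mouse (circle mouse 1, triangle mouse 2). Il6ra lies highest at 0.80 and Il31ra lowest at -4.24, and the mice fall on opposite sides of 0 for Il6 and Lif.

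Levels can be compared between genes only per transcript length, here as CPM per kb of the longest coding transcript. Which transcripts were expressed was not measured, so levels and their order depend on this choice. On that scale Il11ra1 was the highest receptor chain, at 122 to 129 in DPPIV- FAPs and 78.6 to 82.5 in DPPIV+ FAPs, followed by Il6st at 85.4 to 89.3 and 69.9 to 73.4. Of the 5 listed chains, Osmr (30.2 to 31.5 and 24.7 to 26.7) and Lifr (17.1 to 24.4 and 13.1 to 16.3) came next. Il6ra was the lowest of the 5 at 3.62 to 4.68 and 6.80 to 7.62. The 5 chains kept this order in both cell types. Cntfr, which is not among the 5, was at 27.4 to 31.1 in DPPIV- FAPs, overlapping Osmr, and at 6.74 to 10.1 in DPPIV+ FAPs. Among the ligands Il6 stood at 10.6 to 11.7 in DPPIV- FAPs and 9.55 to 18.4 in DPPIV+ FAPs, above Lif at 4.20 to 5.61 and 5.37 to 5.55, and Clcf1 and Il11 were under 2. Neighbours whose ranges overlapped were Lif and Il6ra in DPPIV- FAPs and Lifr and Il6 in DPPIV+ FAPs. Socs3 was above every other listed gene, at 438 to 574 and 596 to 688.

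Relative to gp130 mRNA per kb, the IL-6 receptor was higher in DPPIV+ FAPs and the CNTF receptor lower. Il6ra was at 5.48% and 4.05% of Il6st in the DPPIV- FAPs of mice 1 and 2, and at 10.9% and 9.27% in DPPIV+ FAPs. Cntfr was at 36.4% and 30.7% in DPPIV- FAPs and at 9.64% and 13.7% in DPPIV+ FAPs. Il11ra1 was at 152% and 137% in DPPIV- FAPs and at 112% in both DPPIV+ libraries, and Osmr was at 33.6% to 38.3% in all 4 libraries. These are ratios within a library and were not tested.

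**Figure D3:**
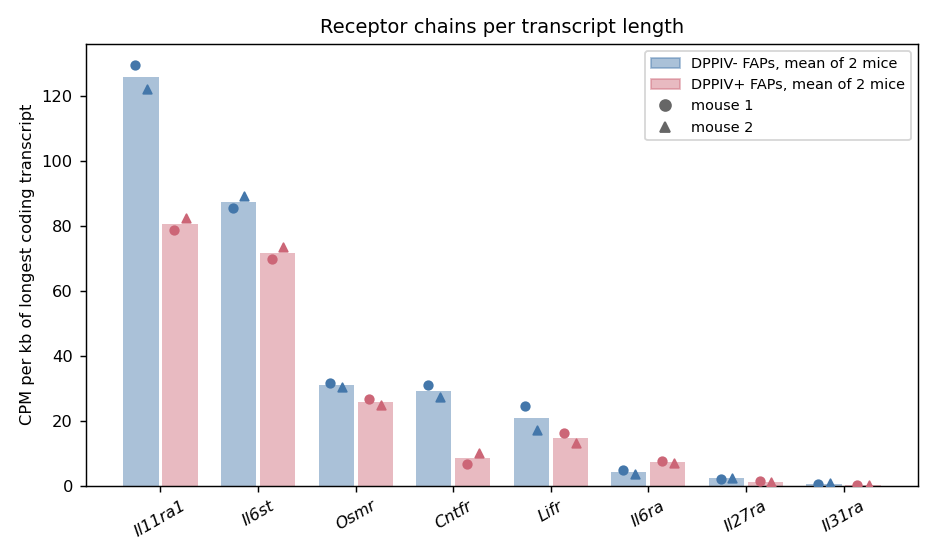
CPM per kb of the longest coding transcript for 8 receptor chains, bars for the mean of 2 mice, circles for mouse 1 and triangles for mouse 2, in DPPIV- (blue) and DPPIV+ (red) FAPs. Blue bars fall from Il11ra1 and Il6st to Il31ra, the red bar of Cntfr is below that of Lifr, and Il6ra is the chain whose red bar is above its blue bar.

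Socs3 (chromosome 11, 117966079 to 117970047), the STAT3-induced inhibitor of gp130 signalling, had the highest level per kb of the listed genes. It was at 1117 and 1465 CPM in the DPPIV- FAPs of mice 1 and 2 and at 1521 and 1757 CPM in DPPIV+ FAPs. Both DPPIV+ libraries were above both DPPIV- libraries, and mouse 2 was above mouse 1 in each cell type. The log2 fold change was 0.35 (standard error 0.07, adjusted p = 6.42e-06 in edgeR), 0.45 in mouse 1 and 0.26 in mouse 2, and the adjusted p without the mouse term was 0.163 in edgeR. Several immediate early genes, which warm digestion of tissue can induce, also differed between the cell types: of 17 such genes and heat shock genes, 3 were higher in DPPIV+ FAPs and 13 lower, with a median log2 fold change of -0.43, where 15.9% and 17.2% of all genes tested were called. Without the mouse term, 0 were higher and 7 lower. The 6 with the smallest p were Btg2 (-0.75), Egr2 (-0.76), Egr3 (-1.01), Nr4a1 (-0.49), Hspa1b (-0.47) and Ier2 (-0.45), all lower in DPPIV+ FAPs in both mice, and of these Hspa1b was not called without the mouse term (adjusted p = 0.512 in edgeR). The summed level of the 17 was 12503 and 11871 CPM in DPPIV- FAPs and 10598 and 9247 CPM in DPPIV+ FAPs, and their part in the levels of Il6, Lif and Socs3 was not tested.

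Promoter sequences are shown for the 3 listed genes called higher, and for Il31ra as the other family gene with a STAT motif. They cover up to 250 bases before a RefSeq start on GRCm38.p6, stop where an annotated exon of the gene begins, as for Socs3, are printed 5′ to 3′ on the gene's strand, and the capitals mark a match to TTCNNNGAA (the STAT motif) or TGANTCA (the AP-1 motif). Socs3 (chr11:117969452-117969616, minus strand) holds a STAT motif that starts 154 bases before the start, Il31ra (chr13:112580663-112580912, minus strand) holds one at 191 bases, Il6 (chr5:30012864-30013113, plus strand) holds an AP-1 motif at 249 bases, and Il6ra (chr3:89913197-89913446, minus strand) holds neither.
Socs3: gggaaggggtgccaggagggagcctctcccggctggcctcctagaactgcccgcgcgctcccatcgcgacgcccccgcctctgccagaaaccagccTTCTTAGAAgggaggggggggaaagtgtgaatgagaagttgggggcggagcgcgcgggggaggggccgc
Il31ra: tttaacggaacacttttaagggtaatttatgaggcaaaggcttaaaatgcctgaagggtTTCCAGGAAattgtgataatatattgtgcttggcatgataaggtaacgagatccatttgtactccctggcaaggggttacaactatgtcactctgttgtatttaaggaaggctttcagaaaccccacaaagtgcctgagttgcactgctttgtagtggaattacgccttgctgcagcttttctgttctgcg
Il6: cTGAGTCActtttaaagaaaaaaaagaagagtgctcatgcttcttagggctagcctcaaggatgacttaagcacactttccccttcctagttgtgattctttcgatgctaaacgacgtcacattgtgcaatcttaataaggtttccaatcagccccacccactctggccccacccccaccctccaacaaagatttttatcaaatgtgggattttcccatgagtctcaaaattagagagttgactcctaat
Il6ra: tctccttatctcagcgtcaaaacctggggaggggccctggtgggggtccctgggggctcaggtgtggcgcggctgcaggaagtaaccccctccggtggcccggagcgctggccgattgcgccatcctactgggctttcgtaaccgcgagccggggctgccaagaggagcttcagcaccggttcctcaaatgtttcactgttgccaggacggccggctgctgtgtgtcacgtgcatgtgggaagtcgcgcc
Both motifs read the same on either strand. A promoter entry was matched for 9 of the 10 genes. Of these 9, only Socs3 held the STAT motif, which occurs in at least 1 promoter of 8.13% of the genes in the table (7.02% of promoters). Il6, Lif and 1 of 2 promoters of Il11 held the AP-1 motif, which occurs in 7.82% of genes (6.75% of promoters). A match is a description of the letters and not a measured site.

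Around the receptors, most kinases and STAT factors did not pass the test. Of 12 signal transducers, 2 were called higher in DPPIV+ FAPs and 10 were not called (median log2 fold change 0.04), a share near the 15.9% of all genes tested that were called higher. Jak1, a kinase bound to gp130, was at 296 and 318 CPM in DPPIV- FAPs and at 377 and 390 CPM in DPPIV+ FAPs (log2 ratio 0.32, adjusted p = 1.12e-05 in edgeR). Ptpn11, which encodes the phosphatase SHP2, had a log2 fold change of 0.22 (adjusted p = 0.00432 in edgeR, 0.172 with DESeq2, 0.107 in edgeR without the mouse term). Of 12 inhibitors besides Socs3, 4 were lower (Socs5, Ptpn1, Cish and Ptpn2), none was higher, and 8 were not called (median -0.02), against 17.2% of all genes tested called lower. Of the 4, Socs5 alone was also called with DESeq2 and without the mouse term, and Socs5 fell by 0.39 on the log2 scale in edgeR.

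Genes known as targets of STAT3 did not share a direction: of 24, 21 were tested, 7 were higher, 7 lower and 7 not called (median log2 fold change 0.07), where 15.9% and 17.2% of all genes tested were called higher and lower. Tnfaip6, which encodes a hyaluronan-binding secreted protein, was at 177 and 176 CPM in DPPIV- FAPs and at 396 and 284 CPM in DPPIV+ FAPs (log2 ratio 0.93). Lcn2, encoding lipocalin, and Myc were higher with log2 fold changes of 1.27 and 0.45. Icam1, an adhesion molecule, was at 133 and 128 CPM in DPPIV- FAPs and at 53.6 and 51.3 CPM in DPPIV+ FAPs (log2 ratio -1.32). Hp, encoding haptoglobin, and Timp1, an inhibitor of metalloproteinases, were lower with log2 fold changes of -1.61 and -0.78, and the libraries of Hp overlapped. Without the mouse term, Myc (adjusted p = 0.106 in edgeR) and Hp (0.261) were not called. Of the 21 targets, 5 were called higher and 4 lower with DESeq2, and 2 higher and 2 lower without the mouse term.

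Of 10 regulators of cytokine mRNA and NF-kB, 4 were higher in DPPIV+ FAPs and none lower (median log2 fold change 0.13), where 15.9% of all genes tested were called higher. With DESeq2, Nfkbia and Rela of the 4 were called. Nfkbia, an inhibitor of NF-kB that NF-kB induces, was at 179 and 202 CPM in DPPIV- FAPs and at 316 and 271 CPM in DPPIV+ FAPs (log2 ratio 0.62, adjusted p = 7.09e-19 in edgeR). Nfkbiz, a nuclear cofactor needed for Il6 transcription, rose by 0.60 on the log2 scale, with 0.90 in mouse 1 and 0.30 in mouse 2 (adjusted p = 1.20e-17 in edgeR, 0.257 with DESeq2). Rela, a subunit of NF-kB, and Zc3h12a, which encodes an RNase that degrades Il6 mRNA, had log2 fold changes of 0.35 and 0.25, and Zc3h12a was not called with DESeq2 (adjusted p = 0.439) or without the mouse term (0.138). Of 4 genes for the shedding of receptors, Adam10 and Adam17, proteases that release the IL-6 receptor from cells, were higher (0.36 and 0.29) and Rhbdf2, a partner of ADAM17, was lower (-1.17). Of all genes tested, 15.9% were called higher and 17.2% lower.

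**Figure D4:**
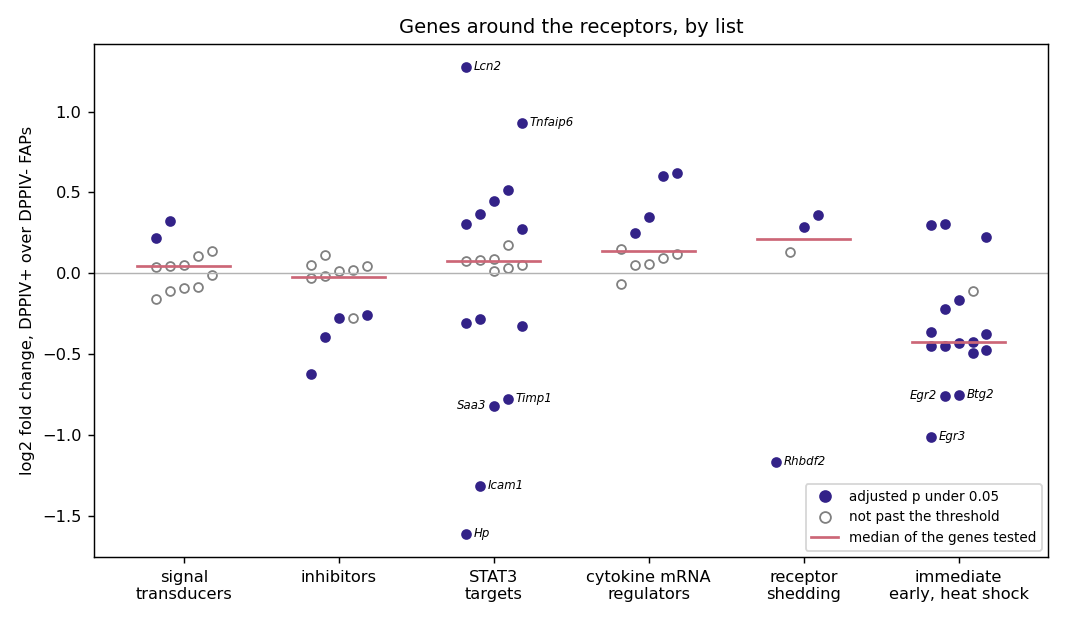
Log2 fold change of DPPIV+ over DPPIV- FAPs for each tested gene of 6 lists, filled where the adjusted p in edgeR was under 0.05, with red lines for the medians. The STAT3 targets spread to both sides of 0 with a median of 0.07, and 13 of the 17 immediate early and heat shock genes lie below 0 and are filled.

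The listed genes also varied between the animals. In the same fit, 8.98% of all genes tested were called between mouse 2 and mouse 1 (4.47% higher and 4.51% lower in mouse 2), and of the 9 listed genes Socs3 was higher in mouse 2 (log2 difference 0.30, adjusted p = 0.00106 in edgeR) and Il6, Lifr and Il6ra were lower. Il6 had the widest difference, -0.55 (adjusted p = 1.43e-07 in edgeR), Lifr had -0.42 and Il6ra -0.26. For Il6 this value averages unlike differences. Mice 1 and 2 were at 27.4 and 24.9 CPM in DPPIV- FAPs and at 43.2 and 22.4 CPM in DPPIV+ FAPs. The gap between the animals thus lay mainly in DPPIV+ FAPs, where the library of mouse 1 was high. With DESeq2 only Lifr of the listed genes was called (adjusted p = 0.0131). Each mouse is 1 animal, so these differences describe this pair only.

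Markers of other cells differed between the cell types as well, by calls from edgeR with the mouse term only. In that fit 15.9% of all genes tested were called higher and 17.2% lower. Of 12 macrophage and leukocyte markers, 10 were tested and 5 were lower in DPPIV+ FAPs, with sums of 411 and 245 CPM in the DPPIV- FAPs of mice 1 and 2 and 270 and 231 CPM in DPPIV+ FAPs, and the resident macrophage marker Timd4 had 0 to 0.143 CPM. Mural markers were lower (5 of 6, sums 121 and 123 against 51.2 and 63.5 CPM), and all 4 tenocyte markers were higher (sums 197 and 295 against 749 and 1549.5 CPM). Most of the tenocyte sums came from Fmod, at 168 and 260 against 689 and 1444 CPM. Of 7 endothelial markers tested, 5 were lower and Tek alone was higher. Sums over 8 endothelial markers were 276 and 197 CPM against 516 and 471 CPM, of which Tek gave 187 and 149 against 467 and 427 CPM. In mice 1 and 2 the log2 ratios were -0.80 and -0.00056 for Pecam1, -0.95 and 0.10 for Kdr, and -1.22 and -0.17 for Flt1. They were -1.36 and -0.34 for Vwf and -0.33 and -0.32 for Cdh5. Further, 2 of 5 markers of glia and perineurium were lower, and none of 4 markers of satellite cells and myofibres was called. Their part in the differences of the IL-6 family genes was not tested.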

How the data were processed

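The data are 4 bulk RNA sequencing libraries. The authors demultiplexed with bcl2fastq 2.20, aligned with STAR to mm10, counted reads on genes with RnaReadCounter, and deposited raw counts per gene symbol without normalization or filter. The submitters' notes also name Bowtie, with no role. Use of strand in counting was not stated.

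From these counts, genes that reached 2 CPM in 2 or more libraries were compared in R 4.3.3 with edgeR 4.0.16 (TMM, glmQLFit without robust moderation, glmQLFTest, two-sided), with mouse and cell type in the model and Benjamini-Hochberg adjustment over 11588 genes at 0.05. Prior degrees of freedom were infinite, so the spread came from the trend with abundance for every gene, and 1 residual degree of freedom was left. The standard error is the log2 fold change over the square root of F. Log2 ratios per mouse used a prior count of 0.125. The labels give each mouse number to 1 library of each cell type, so mouse is a block from the same animal, and differences between the mice had a correlation of 0.415 between cell types across genes. With 2 mice, the p-values of this edgeR fit rest on the trend with abundance in these samples and not on the spread of the gene tested. They do not measure the spread between mice in general. Alternatives were DESeq2 1.42.0, no mouse term, RLE, no filter, 10 reads in every library, the likelihood ratio test, robust moderation, each mouse left out and, added after seeing the data, a correction for GC content and length (span 0.5; values for 96.7% of genes). The tests were run on simulated data whose spread followed the same trend with abundance and which held no difference between mice. False calls from a gene's own spread or from the mice could therefore not show there. The members and lists were chosen with earlier results of these data known. All listed genes and the family ligands and receptors considered were named (1 item is not reported here), and of other lists up to 6 genes past the threshold by smallest p. Positions are of GENCODE M21 on GRCm38 and sequences of RefSeq on GRCm38.p6. Ratios of reads carry exact binomial 95% intervals.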

Additional observations from a re-analysis of the deposited data

How the results depend on the processing

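Of the 9 listed genes tested, Clcf1, Il6ra and Il11ra1 kept their direction and adjusted p under 0.05 in all 9 settings, as did Cntfr, though Clcf1 passed the 2 CPM filter through its DPPIV- libraries alone. With DESeq2, 923 genes were higher and 995 lower over the whole table, 1 signal transducer or inhibitor was higher and 1 lower, 4 STAT3 targets were lower, and between the mice 0 listed genes were higher and 1 lower in mouse 2. Without the mouse block, 1001 and 1119 genes were called, with 1 listed gene higher (Il6ra) and 2 lower (Clcf1 and Il11ra1), 1 signal transducer or inhibitor higher and 1 lower, 2 STAT3 targets higher and 2 lower, and 0 immediate early genes higher and 7 lower. The cause was not tested. Calls lost by the genes named with a fold change are given beside them. Ptpn2 was also lost under RLE size factors (0.0691), without a filter (0.0697), with 10 reads in every library (0.0507) and in the likelihood ratio test (0.0507), all adjusted p in edgeR. No test could be fitted with 1 mouse, and log2 ratios alone were compared: Il6 ranged from -0.16 without mouse 1 to 0.66 without mouse 2, and of the other tested family genes only Lif, which was not called, changed sign (-0.02 without mouse 1). Il11, Ctf1 and Osm lie at read counts where only large differences could be seen.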
